A study of Mus musculus with 3 samples.

Results

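Expression of the matrix metalloproteinases (MMPs), the ADAMTS proteases and the TIMPs was compared by RNA-seq between mouse embryonic fibroblasts (MEFs) and embryonic stem cells (ESCs). The members were every gene whose symbol is Mmp, Adamts or Timp followed by its number, 46 of the 29267 genes in the deposited tables: 23 MMP genes, 19 ADAMTS genes and 4 TIMP genes. MEFs are the cells in which reprogramming to pluripotency starts, and ESCs stand for its end point. There were 2 MEF samples, 1 of OG2 mice, whose Oct4-GFP transgene reports pluripotency, and 1 of the ICR strain, both at passages 3 to 5 and with no treatment named. The ESC side was 1 library of the R1 line at passage 30, titled naive, so every difference from ESCs rests on 1 library of 1 line. Nothing in the labels says whether MEFs of several embryos were pooled.

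MMPs are zinc proteases that are made as inactive precursors and cut collagens, basement membrane and other matrix proteins, either as secreted enzymes or anchored to the cell surface. ADAMTS proteases are secreted relatives with thrombospondin repeats that hold them in the matrix, where they trim proteoglycans, procollagens and microfibrils. TIMPs are small secreted proteins that bind the active sites of these enzymes and block them. Fibroblasts are a main source of all 3 families in connective tissue.

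RSEM estimates a read number for each gene, the expected count. OG2 MEFs had a sum of 5149312 such counts, ICR MEFs 4590619 and the ESC library 1717838. A value of 3 counts, taken as the smallest level these depths can show, corresponded to 0.532, 0.58 and 2.15 CPM (counts scaled to a common library size) after TMM scaling, a correction for library composition. Counts over genes differed between the MEF samples by more than sampling noise (chi-square per degree of freedom 6.62), so they were not 1 library deposited in duplicate. The ESC library stood apart from its label in part. Of 12 ESC markers, 6 were at least 1 log2 unit higher there than in both MEF samples, among them Pou5f1 with 71 counts and Nanog with 51, but Zfp42, Esrrb, Dppa5a, Utf1 and Dppa3 were at 0 and Klf2 was lower with 2 counts against 63 and 91. It is therefore called the library labelled ESC. Of 12 fibroblast markers, 11 were lower in it, with a summed level of 1667 CPM against 21160 and 21910 CPM in OG2 and ICR MEFs, and none was at 0. Of 10 epithelial markers, 6 were higher, with a summed level of 697.7 CPM against 39.4 and 44.9 CPM, while Krt5, Trp63 and Cldn4 were at 0. Of 7 endothelial markers, 3 were higher and 1 lower. They summed to 87.5 CPM against 16.7 and 23.6 CPM, of which Pecam1 alone made up 64.5 CPM, and Cdh5 and Kdr were at 0. By the same measure of 1 log2 unit, 21.9% of all 17810 genes with a count were higher and 25.9% lower. The marker counts given here are to be read against these shares. In RNA from whole cultures, fewer cells of a type and less RNA per cell cannot be told apart, and the part of these cell types in the results below was not tested.

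A count in at least 1 library was found for 36 of the 46 members. The 10 at 0 in every library were Mmp1a, Mmp1b, Mmp7, Mmp8, Mmp20, Mmp21, Mmp25, Mmp27, Adamts13 and Timp4. Another 8 had a count but fewer than 10 in every library, namely Mmp10, Mmp24, Adamts8, Adamts16, Adamts17, Adamts18, Adamts19 and Adamts20. The remaining 28 had at least 10 counts in 1 library or more, and they comprised 13 MMP, 12 ADAMTS and 3 TIMP genes. In the library labelled ESC 28 members had a count, fewer than the 35 of OG2 MEFs and the 33 of ICR MEFs. With the MEF libraries scaled down to the depth of the library labelled ESC, at least 3 counts were reached by 26 members in OG2 MEFs and 27 in ICR MEFs, against 23 in the library labelled ESC.

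**Figure D1:**
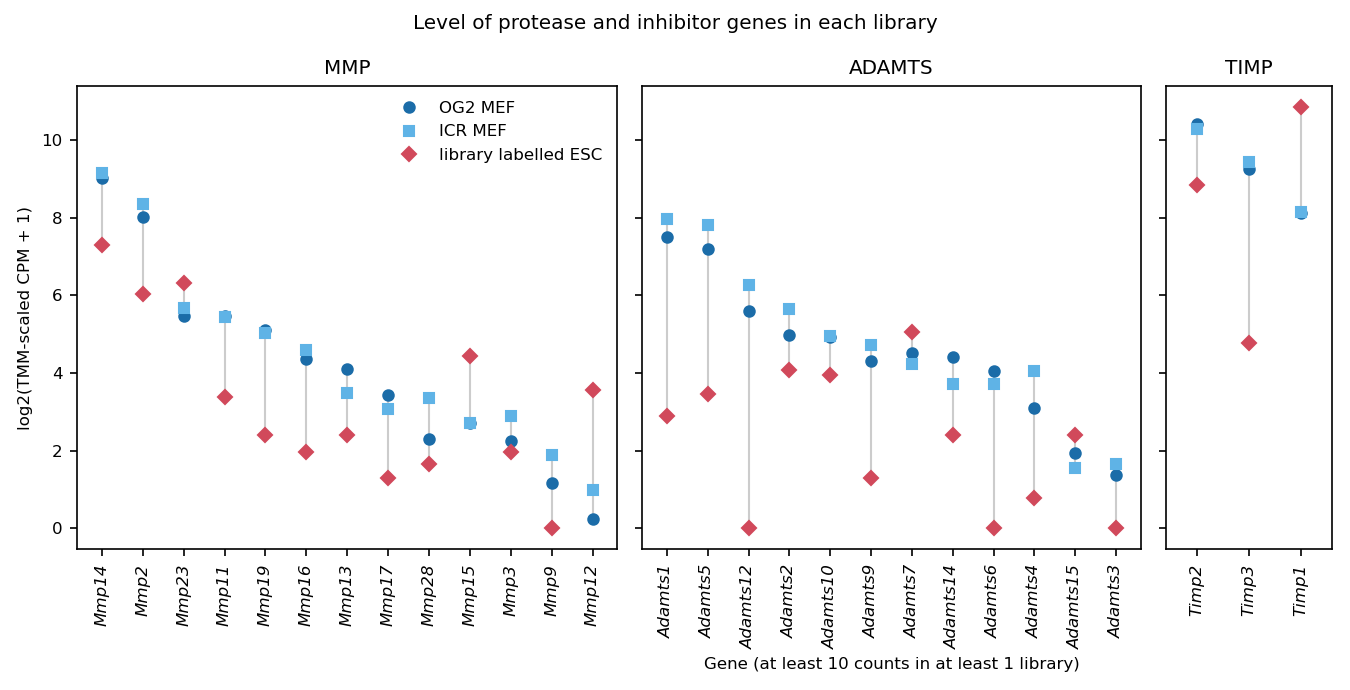
Level of the 28 members with at least 10 counts in 1 library or more, as log2(TMM-scaled CPM + 1) on the vertical axis and by gene on the horizontal axis, with 1 point for each library and a grey line over their range. Blue points (OG2 MEF and ICR MEF) lie close together for most genes, and the red point of the library labelled ESC lies below both for most genes and far above both for Timp1.

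The fold change of a gene is its log2(CPM + 1) in the library labelled ESC less the MEF mean, a scale on which differences between low counts appear too small. By this measure 6 of the 36 members with a count exceeded each MEF sample by 1 log2 unit or more, and 18 lay as far below each. The 6 were Timp1, Mmp12 and Mmp15, and also Mmp10, Mmp24 and Adamts20, which had fewer than 10 counts in every library. Over all 17810 genes with a count the shares were 21.9% above and 25.9% below. The median log2 fold change was -1.32 over the members and -0.13 over all genes, and its SD over the members (2.14) was near that over all genes (1.86). With deposited TPM, a measure per gene length, in place of CPM, the split over all genes was 9.12% above and 43.2% below. MMP genes gave 4 above and 8 below of 15 with a count, ADAMTS genes 1 above and 8 below of 18, and TIMP genes 1 above and 2 below of 3. The quasi-likelihood test of edgeR, adjusted by Benjamini-Hochberg over all tested genes, called 5 of 28 tested members higher (Timp1, Mmp12, Mmp15, Mmp23 and Adamts7) and 18 lower at an adjusted p under 0.05. The shares over all 12663 tested genes were 31.4% higher and 36.0% lower. It leaves 1 residual degree of freedom, so its p-values measure only the spread between the MEF samples, which differ in strain. DESeq2 called 3 members higher and 12 lower, against 22.2% and 21.3% of its 13681 genes with an adjusted p. It did not call Mmp23, Adamts7, Mmp13, Mmp17, Adamts2, Adamts4, Adamts10 or Adamts14. The 18 members lower by fold and the 18 lower by the edgeR test were not all the same genes. Mmp9 and Adamts3, both at 0 counts in the library labelled ESC and low in MEFs, were lower by fold only. Adamts2 and Adamts10 were lower by the edgeR test only.

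**Figure D2:**
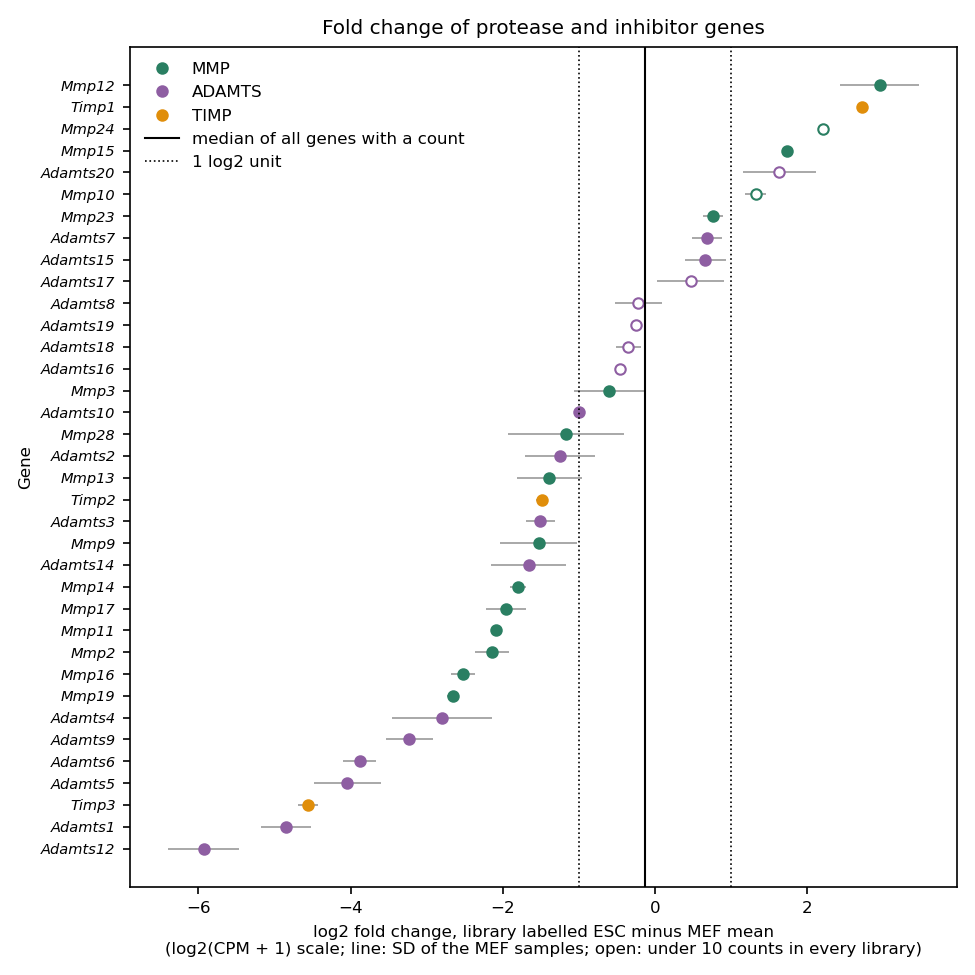
Log2 fold change (horizontal axis, library labelled ESC less the MEF mean, log2(CPM + 1) scale) of the 36 members with a count, with lines of 1 SD between the MEF samples (n = 2) and open symbols for members under 10 counts in every library. The members range from -5.93 for Adamts12, a gene at 0 counts in the library labelled ESC whose value is set by the pseudocount, to 2.95 for Mmp12, and the black line marks the median of all genes, -0.13.

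Among the inhibitors, Timp1 went the other way from Timp2 and Timp3. Timp1 (ENSMUSG00000001131, chrX:20870166-20874735 on GRCm38, plus strand), a secreted inhibitor of most MMPs, was at 281 CPM in OG2 MEFs and 283 CPM in ICR MEFs. The library labelled ESC had 1861 CPM from 2595 counts. The MEF samples were nearly equal and the library labelled ESC lay far above both. The log2 fold change was 2.72 (MEF SD 0.01, n = 2), with an edgeR adjusted p of 1.24e-06, and 93.6% of all genes had a lower value. As a ratio of CPM this was 6.6-fold (95% interval 6.26 to 6.95, counting error only). From deposited TPM the log2 fold change of Timp1 was 1.15, and after a correction for GC content and gene length it was 1.44.

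Timp2 (ENSMUSG00000017466, chr11:118301069-118355740, minus strand) is an inhibitor that also takes part in the activation of pro-MMP2 at the cell surface by Mmp14. It was at 1357 CPM in OG2 MEFs and 1251 CPM in ICR MEFs against 463 CPM in the library labelled ESC, a 2.82-fold lower level (95% interval 2.61 to 3.06) with an edgeR adjusted p of 0.000312. Timp3 (ENSMUSG00000020044, chr10:86300372-86349506, plus strand), the inhibitor that stays bound to matrix and also blocks ADAMTS enzymes, fell furthest of the family. Its levels were 608.5, 688.4 and 26.5 CPM in the same order, with 37 counts behind the last value. The log2 fold change was -4.56 (MEF SD 0.13, edgeR adjusted p = 1.05e-06), lower than in all but 0.9% of genes. On its opposite strand Timp3 shares 1733 exon bases with Syn3, and reads of both strands cannot be told apart because the kit named in the labels does not mark strand. Syn3 had 6 counts in each MEF sample and 3 in the library labelled ESC.

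The summed TIMP level was similar in all 3 libraries, but its make-up was not. The CPM sum of the 3 detected TIMPs was 2247 in OG2 MEFs and 2223 in ICR MEFs, and the library labelled ESC had 2351, a log2 ratio of 0.07 against MEFs that was -0.04 by TPM. Measured per length, Timp2 and Timp1 held similar shares of the TIMP sum in MEFs. Timp2 took 46.9% and 44.2% of the TPM in OG2 and ICR MEFs, and Timp1 took 40.2% and 40.8%. In the library labelled ESC Timp1 alone took 92.4%, Timp2 7.38% and Timp3 0.199%. Ranked by TPM among all genes, Timp1 was at place 146 in OG2 MEFs and 134 in ICR MEFs, and at place 58 in the library labelled ESC.

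The protease sums were lower in the library labelled ESC. Where 3 values stand together from here on, their order is OG2 MEFs, ICR MEFs, library labelled ESC. MMP genes summed to 962, 1091 and 367 CPM, a log2 ratio of -1.48 (MEF SD 0.129). ADAMTS genes summed to 525, 720 and 94.7 CPM, a log2 ratio of -2.70 (MEF SD 0.323). The ratio of summed TIMP to summed MMP and ADAMTS level in TPM was 2.09 in OG2 MEFs and 1.74 in ICR MEFs, against 13.2 in the library labelled ESC. In CPM it was 1.51, 1.23 and 5.09. The TIMP sum itself was similar (2069, 2179 and 2065 TPM), and the summed protease level was 992, 1252 and 157 TPM. With Timp1 left out of the TIMP sum the ratio was 1.25, 1.03 and 0.998.

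**Figure D3:**
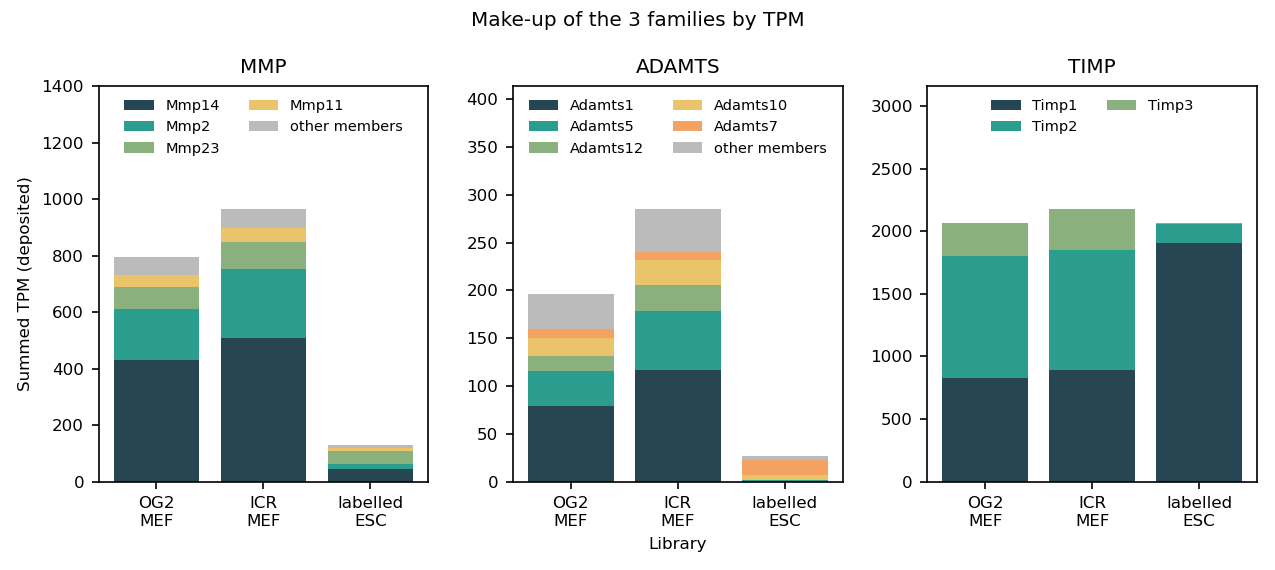
Summed deposited TPM (vertical axis, each from 0) of MMP, ADAMTS and TIMP genes in the 3 libraries, stacked by member. The TIMP bars are of like height (2069, 2179 and 2065 TPM) but mostly Timp1 in the library labelled ESC, where the MMP bar (130.5 TPM) and the ADAMTS bar (26.5 TPM) are short.

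Of the gelatinases, which cut denatured collagen and basement membrane collagen, Mmp2 was strongly expressed in MEFs and Mmp9 hardly at all. Mmp2 (ENSMUSG00000031740, chr8:92827291-92853420, plus strand) had 1472, 1684 and 91 counts in OG2 MEFs, ICR MEFs and the library labelled ESC. Its CPM was 4.48-fold lower in the last (95% interval 3.63 to 5.58), a log2 fold change of -2.14 (MEF SD 0.22, edgeR adjusted p = 6.28e-05). Mmp9 had 7, 14 and 0 counts, and its difference did not pass the test (edgeR adjusted p = 0.127).

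Mmp13, the main interstitial collagenase of the mouse, had 16.2, 10.3 and 4.30 CPM. Its log2 fold change of -1.39 (MEF SD 0.43) passed the test narrowly (edgeR adjusted p = 0.0495), and it was no longer 1 log2 unit below both MEF samples with other size factors (-1.22) or after GC-content correction (-0.89). Of the stromelysins, which have broad substrates, Mmp3 had 21, 33 and 4 counts and did not pass (edgeR adjusted p = 0.494), and Mmp10 had 4, 5 and 5. Part of these counts was divided by RSEM between both genes: the expected counts of Mmp3 and Mmp10 were 20.83 and 4.17 in OG2 MEFs and 33.02 and 4.98 in ICR MEFs. Mmp11, a stromelysin relative activated inside the cell by furin, was at 43.5, 42.6 and 9.32 CPM, with a log2 fold change of -2.09 (edgeR adjusted p = 0.000242).

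Mmp12, an elastase best known from macrophages, had 1, 5 and 15 counts and the highest log2 fold change of the members (2.95, MEF SD 0.52, edgeR adjusted p = 0.00284). These counts are few: the CPM ratio was 19.4 with a 95% interval of 7.10 to 60.9, and by TPM the log2 fold change was 0.83. In the library labelled ESC the deposited length of Mmp12 was 4474 bases, which is that of a transcript annotated in GENCODE M21 as a retained intron, whereas it was 1185 bases in OG2 MEFs and 2784 in ICR MEFs. Summed macrophage markers were at 91.1 CPM in the library labelled ESC against 76.7 and 43.5 CPM in OG2 and ICR MEFs. Of the 8 markers, 2 were above and 1 was below both MEF samples, against 21.9% and 25.9% of all genes with a count. Itgam carried 63.1 of the 91.1 CPM, with 88 counts against 21 and 11, and Lyz2 was lower with 237, 132 and 13 counts. The other marker above was Aif1, with 1, 0 and 3 counts. Ptprc and Adgre1 were at 0 in the library labelled ESC, and Ptprc also in ICR MEFs. Cd68 was at 6.035, 4.64 and 7.89 CPM and Csf1r at 10.5, 5.42 and 6.45 CPM. Cd14 had 35, 25 and 3 counts.

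Mmp19, a basement membrane protease, was at 33.6, 31.3 and 4.30 CPM (log2 fold change -2.66, edgeR adjusted p = 0.000221). It shares 789 exon bases with Tmem198b on the opposite strand, which had 170 counts in each MEF sample and 24 in the library labelled ESC. Mmp28, known as epilysin, had 22, 48 and 3 counts and did not pass (edgeR adjusted p = 0.2). Mmp23, a short member that is anchored in the membrane by its precursor and has no hemopexin domain, was at 43.7, 49.9 and 79.6 CPM. The edgeR test called it higher in the library labelled ESC (adjusted p = 0.00173), but its log2 fold change of 0.76 changed sign with TPM (-0.88) and after GC-content and length correction (-0.43).

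Of the membrane-type MMPs, those with most reads in MEFs were lower in the library labelled ESC and Mmp15 was higher. Mmp14 (ENSMUSG00000000957, chr14:54431612-54445364, plus strand), the transmembrane collagenase that activates Mmp2, was the leading MMP by TPM in both MEF samples, with 54% and 52.7% of the family's TPM. It was at 519, 575 and 156 CPM, which is 3.49-fold lower in the library labelled ESC (95% interval 3.05 to 4.02, edgeR adjusted p = 8.61e-05). Mmp14 there took 34.6% of the MMP TPM, next to Mmp23 with 35.4%.

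Mmp16, another transmembrane member, was at 19.5, 23.0 and 2.87 CPM (log2 fold change -2.52, edgeR adjusted p = 0.00108). Mmp17, which has a lipid anchor, was at 9.76, 7.35 and 1.43 CPM (-1.96, edgeR adjusted p = 0.0205). Mmp15, also a transmembrane member, was at 5.50, 5.61 and 20.8 CPM, the last from 29 counts. The log2 fold change of Mmp15 was 1.73 (MEF SD 0.02, edgeR adjusted p = 0.00147) and 0.26 by TPM. Mmp24, known from neurons, had no count in MEFs and 5 in the library labelled ESC, at least 6.18-fold higher against 3 counts in each MEF library. It shares 637 exon bases with BC029722 on the opposite strand, which had 221, 205 and 104 counts.

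The ADAMTS genes with the highest levels in MEFs were Adamts1 and Adamts5, both proteoglycanases, which cut aggrecan and versican. Adamts1 (ENSMUSG00000022893, chr16:85793827-85803113, minus strand) was at 182, 252 and 6.45 CPM, the last from 9 counts. In the library labelled ESC it was 33.4-fold lower (95% interval 17.5 to 73.1, edgeR adjusted p = 5.76e-06). Adamts5 (ENSMUSG00000022894, chr16:85856173-85901828, minus strand), the main aggrecanase of mouse cartilage, lies 53.1 kb from Adamts1. It had 815, 1159 and 14 counts, and its CPM was 18.2-fold lower (95% interval 10.8 to 33.4, edgeR adjusted p = 2.99e-05). For both genes the MEF samples differed far less from each other than from the library labelled ESC, and both kept a log2 fold change under -2 after GC-content and length correction (-3.55 and -2.29).

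Adamts4, a further aggrecanase, had 43, 80 and 1 counts, and the CPM ratio of 15.9 had a 95% interval of 2.80 to 632 (edgeR adjusted p = 0.0101). Adamts9, which acts on versican, was at 18.6, 25.5 and 1.43 CPM (log2 fold change -3.23, edgeR adjusted p = 0.000627). Its relative Adamts20 had 2, 6 and 6 counts and was under the filter of the test. Adamts15, a versican-cutting member, had 16, 10 and 6 counts with a log2 fold change of 0.66 that did not pass (edgeR adjusted p = 0.306) and was -0.27 by TPM.

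The procollagen N-proteinases, which trim the amino end of fibrillar procollagens, were lower or not called. Adamts2 was at 30.9, 49.0 and 15.8 CPM, with a log2 fold change of -1.25 (MEF SD 0.46, edgeR adjusted p = 0.0253), but OG2 MEFs were less than 1 log2 unit above the library labelled ESC. Adamts14 was at 20.2, 12.2 and 4.30 CPM (-1.66, edgeR adjusted p = 0.0244). Adamts3 had 9, 11 and 0 counts and did not pass the test (edgeR adjusted p = 0.117).

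Adamts12 and Adamts7 both act on cartilage oligomeric matrix protein and differed in direction. Adamts12 (ENSMUSG00000047497, chr15:11064790-11349231, plus strand) was at 47.6 CPM in OG2 MEFs and 76.0 CPM in ICR MEFs, from 268 and 393 counts, and at 0 in the library labelled ESC. Against the floor of 3 counts in that library it was 28.4-fold lower (edgeR adjusted p = 7.03e-05). That ratio is not a minimum, since the exact interval of the CPM ratio, which covers counting error only, reached down to 23.07-fold. Adamts7 was at 21.8, 17.8 and 32.3 CPM, with a log2 fold change of 0.68 (MEF SD 0.2, edgeR adjusted p = 0.0207) that was under 1 log2 unit and came to 0.14 after GC-content correction. It held 60.2% of the ADAMTS TPM in the library labelled ESC, where Adamts1 had led in MEFs with 40.2% and 41.1%.

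Of the members linked to fibrillin microfibrils, Adamts6 was at 15.4 and 12.2 CPM in OG2 and ICR MEFs. It was at 0 in the library labelled ESC, and 6.46-fold lower against the floor of 3 counts there (edgeR adjusted p = 0.000551). The exact interval of its CPM ratio, which covers counting error only, reached down to 5.185-fold. Adamts10 was at 29.3, 30.0 and 14.3 CPM, and the edgeR test called it lower (adjusted p = 0.0249), but it lay just inside 1 log2 unit of OG2 MEFs. The other ADAMTS genes with a count (Adamts8, Adamts16, Adamts17, Adamts18 and Adamts19) had at most 3 counts in any library, too few to compare at this depth.

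For Adamts7 and Mmp11 the deposited gene length, which RSEM averages over the transcripts it assigns reads to, also differed. Adamts7 was 5000 and 4933 bases long in OG2 and ICR MEFs, against 1577 bases in the library labelled ESC, a ratio of 0.318. Mmp11 was 2191, 2123 and 766 bases long, a ratio of 0.355. Among 8336 genes with at least 10 counts in every library, 3.74% had a ratio of 0.4 or lower against MEFs, and 0.072% between ICR and OG2 MEFs. A shorter length raises TPM for the same count, so the size of the TPM share of Adamts7 rests on it in part. By CPM, which takes no account of length, Adamts7 still led the ADAMTS genes in the library labelled ESC, with 34.1%. Mmp11 shares 155 exon bases with Chchd10 on the opposite strand, which had 50, 45 and 446 counts, and Adamts7 shares 122 with Tbc1d2b, which had 461, 502 and 12.

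A cluster of 10 MMP genes spans 427.1 kb of chromosome 9 (chr9:7272514-7699585, GRCm38) and holds secreted collagenases, stromelysins and related enzymes. It gave few reads in every library. Mmp13, Mmp12, Mmp3 and Mmp10 had counts in all 3 libraries, and the other 6 genes were at 0 throughout. The expected counts of the cluster summed to 117, 95.9 and 29.9, which per library size came to 20.8, 18.6 and 21.5 CPM. The make-up of the sum differed, with Mmp13 at 16.2, 10.3 and 4.30 CPM and Mmp12 at 0.177, 0.967 and 10.8 CPM.

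**Figure D4:**
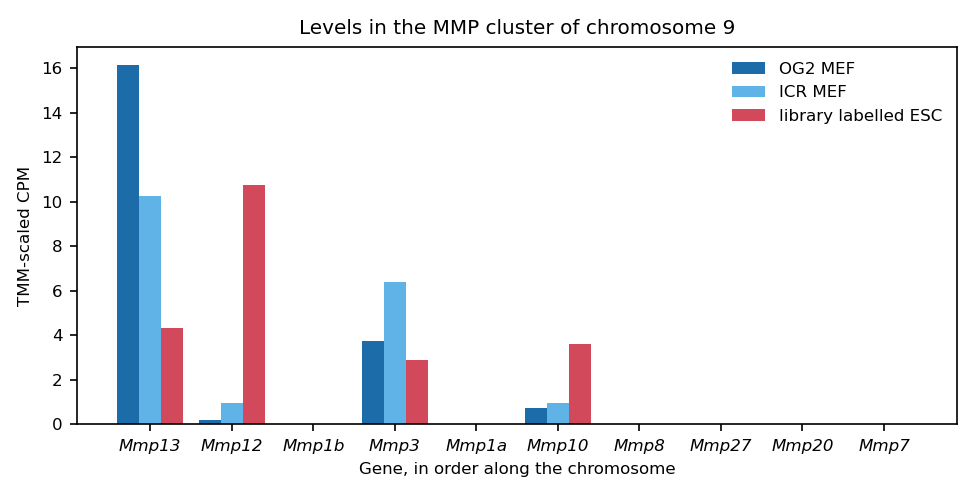
TMM-scaled CPM (vertical axis, from 0) of the 10 MMP genes of the chromosome 9 cluster in their order along the chromosome, with 1 bar for each library. Mmp13 is highest in both MEF samples (16.2 and 10.3 CPM), Mmp12 is highest in the library labelled ESC (10.8 CPM, from 15 counts), and 6 genes are at 0.

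The promoters of this cluster share an arrangement not found in the other members with a promoter. RefSeq promoters (GRCm38.p6) were found for 32 of the 46 members, with 35 promoters in all, and the 250 bases before each start were searched on both strands. The AP-1 motif TGANTCA, read by Fos and Jun factors, was found in 8 of the 10 cluster genes and in none of the 22 other members with a promoter. By promoters this was 8 of the 12 in the cluster, against 6.75% of all 32851. The Mmp12 match lies inside the gene as annotated, and the promoter at its annotated start (chr9:7344147-7344396) holds none. A TATA motif, TATAAA, accompanied the AP-1 motif in 7 of the 8 genes that hold it. Of all promoters, 2217 held the AP-1 motif and 399 of these also held TATAAA. By promoters, both motifs were in 7 of the 12 in the cluster, against 1.21% of all 32851. The GC box GGGCGG was absent from the 10 cluster genes and present in 16 of the 22 others, against 32.7% of all promoters. The median GC content was 40.2% in the cluster and 63.6% in the others. The Ets motif AGGAAG was in 14 of the 35 member promoters, against 29.5% of all. These matches are descriptions of the sequence, and AP-1 and TATA matches do not overlap in the stretches shown. The 60-base stretches that hold the AP-1 match are given 5′ to 3′ because they show the shared arrangement, with AP-1 and TATA matches in capitals. They lie on the plus strand at chr9:7272454-7272513 (Mmp13), chr9:7347314-7347373 (Mmp12), chr9:7445762-7445821 (Mmp3), chr9:7464063-7464122 (Mmp1a), chr9:7502274-7502333 (Mmp10), chr9:7628131-7628190 (Mmp20) and chr9:7692022-7692081 (Mmp7), and on the minus strand at chr9:7388065-7388124 (Mmp1b).
Mmp13: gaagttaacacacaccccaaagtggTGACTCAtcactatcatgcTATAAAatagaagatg
Mmp12: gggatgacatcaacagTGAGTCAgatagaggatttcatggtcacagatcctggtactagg
Mmp1b: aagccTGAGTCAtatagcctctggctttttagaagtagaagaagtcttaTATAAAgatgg
Mmp3: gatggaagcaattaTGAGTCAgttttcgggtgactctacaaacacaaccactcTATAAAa
Mmp1a: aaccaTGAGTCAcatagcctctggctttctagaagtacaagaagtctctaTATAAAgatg
Mmp10: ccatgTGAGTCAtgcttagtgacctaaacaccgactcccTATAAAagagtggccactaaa
Mmp20: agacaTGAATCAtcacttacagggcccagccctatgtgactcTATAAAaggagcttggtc
Mmp7: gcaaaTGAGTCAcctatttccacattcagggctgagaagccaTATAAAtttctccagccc

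Between the AP-1 and TATA matches lie 12 bases in Mmp13 and 27 to 38 bases in the other 6 genes that hold both. Mmp12 has an AP-1 match and no TATA match. Mmp1a and Mmp1b, which hold both motifs, had no count in any library, and Mmp13, which also holds both, had the most counts of the cluster in MEFs. In the library labelled ESC Mmp12 had the most.

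The promoters of Timp1, the member with the highest level in the library labelled ESC, and of Adamts1, whose fold change was among the lowest, are shown for contrast with those of the cluster. The 250 bases lie at chrX:20869916-20870165 on the plus strand for Timp1 and at chr16:85803114-85803363 on the minus strand for Adamts1. Capitals mark the Ets motif AGGAAG, the GC box GGGCGG in either direction and TATAAA.
Timp1: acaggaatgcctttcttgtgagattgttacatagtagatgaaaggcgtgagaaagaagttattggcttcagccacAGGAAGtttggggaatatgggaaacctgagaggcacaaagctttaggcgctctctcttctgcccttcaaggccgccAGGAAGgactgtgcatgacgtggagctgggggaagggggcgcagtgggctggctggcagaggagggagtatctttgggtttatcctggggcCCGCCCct
Adamts1: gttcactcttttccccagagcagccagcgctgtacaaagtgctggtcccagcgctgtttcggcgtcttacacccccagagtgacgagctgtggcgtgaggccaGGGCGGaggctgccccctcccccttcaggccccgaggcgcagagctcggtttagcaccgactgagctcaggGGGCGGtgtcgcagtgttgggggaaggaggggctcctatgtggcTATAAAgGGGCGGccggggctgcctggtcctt

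Timp1 holds 2 Ets matches and 1 GC box with a GC content of 54.4%, and Adamts1 holds 1 TATA match and 3 GC boxes with a GC content of 65.6%. Neither holds the AP-1 letters in this window.

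Between the MEF samples, which stand for 1 sample of each strain and allow no test, the members differed about as much as all genes. Of the 36 members with a count, only Mmp28 was at least 1 log2 unit apart, against 2.76% of all genes with a count. Mmp28 was not apart with a pseudocount of 5. It was at 3.91 CPM in OG2 MEFs and 9.29 CPM in ICR MEFs, a ratio of 2.38 (95% interval 1.41 to 4.14, counting error only). The SD of the log2 difference between ICR and OG2 MEFs was 0.449 over the members with a count and 0.413 over all genes.

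The members named here were chosen after their values were seen. The ICR to OG2 ratio was 2.03 for Adamts4 (95% interval 1.38 to 3.01), 1.55 for Adamts5 (1.42 to 1.70), 1.38 for Adamts1 (1.27 to 1.5) and 1.37 for Adamts9 (1.05 to 1.79). Adamts15, from 16 and 10 counts, had a ratio of 0.681 (0.276 to 1.60). Adamts12 (1.60, 1.37 to 1.87) and Adamts2 (1.59, 1.30 to 1.93) were higher in ICR MEFs by similar ratios. Acan, the gene of the substrate aggrecan, is not a member and was also picked after its values were seen. It had 7 counts in OG2 MEFs and 80 in ICR MEFs. Vcan, the gene of the substrate versican, had 3839 and 3729 counts, at 681 and 721.5 CPM. Smaller ratios were found for Mmp2 (1.25, 1.16 to 1.34), Timp3 (1.13, 1.08 to 1.19) and Mmp14 (1.11, 1.05 to 1.17).

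Lower in ICR MEFs were Adamts14 (0.602, 0.436 to 0.827), Mmp13 (0.635, 0.444 to 0.9004) and Timp2 (0.922, 0.892 to 0.953). Timp1 had a ratio of 1.01 (0.939 to 1.08). Macrophage genes were higher in OG2 MEFs, with 34 against 5 counts of Adgre1 and 11 against 0 of Ptprc, and their part in these differences was not tested.

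**Figure D5:**
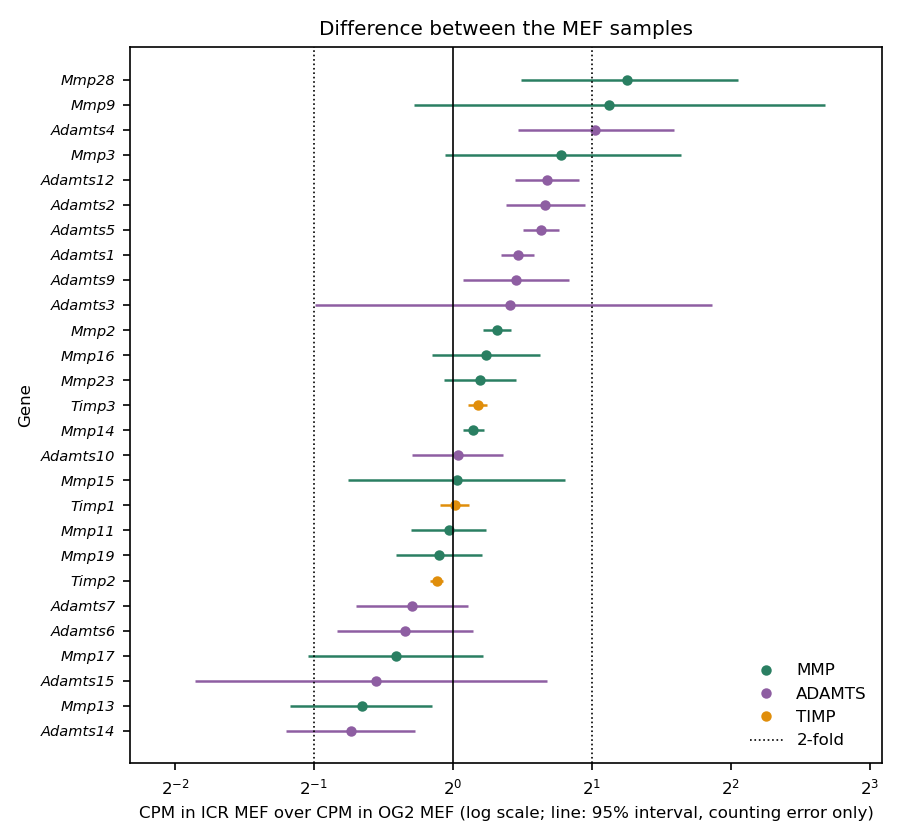
Ratio of CPM in ICR MEFs to CPM in OG2 MEFs (horizontal axis, log scale) for the members with at least 10 counts over both MEF samples, with 95% intervals that cover counting error only. Mmp28 (2.38) and Adamts4 (2.03) are among the highest and Adamts14 (0.602) is the lowest, and the interval of Timp1 holds 1.

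The counts of the pathway lists below are to be read against the shares over all genes, 21.9% above and 25.9% below. Regulators of the protease system gave 0 genes above and 7 below both MEF samples of 14 with a count. Lrp1, the receptor that takes up proteases and their inhibitors, was at 1524, 1617 and 116 CPM. Bsg, an inducer of MMP expression, was at 595, 521 and 1016 CPM (log2 fold change 0.87, edgeR adjusted p = 0.000815). Serpine2, a secreted inhibitor of serine proteases, was at 238, 277 and 89.6 CPM. Reck, a membrane-anchored MMP inhibitor that is not among the genes of this list with the highest levels and was picked after its values were seen, had 172, 170 and 0 counts.

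Of the ADAM proteases, which shed proteins from the cell surface, 1 was above and 6 were below of 11. Adam9 was at 236, 300 and 2.15 CPM, Adam19 at 203, 205 and 3.59 CPM and Adam10 at 145, 146 and 30.8 CPM. Adam15 was the exception, at 150.5, 145 and 408 CPM (log2 fold change 1.46, edgeR adjusted p = 2.45e-05). The astacin proteases and their enhancers gave 1 above and 2 below of 5 with a count. Among them Bmp1, the procollagen C-proteinase, was at 164, 195 and 43.7 CPM, and its relative Tll1 at 59.8, 64.0 and 1.43 CPM. Its enhancers were not lower, with Pcolce at 559, 534 and 744 CPM and Pcolce2 at 11.4, 13.2 and 35.1 CPM.

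ADAMTS-like proteins, which lack the protease domain, gave 0 above and 2 below of 7. Adamtsl1 was at 20.1, 19.4 and 4.30 CPM and Adamtsl3 at 13.1, 40.4 and 0.717 CPM, while Adamtsl4 was at 24.8, 27.1 and 13.6 CPM and Adamtsl5 at 42.2, 51.3 and 83.2 CPM. Matrix substrates gave 3 above and 11 below of 16. Fn1 (fibronectin) was at 7787, 9095 and 284 CPM, Col1a1 at 9474, 9428 and 828 CPM, Col1a2 at 7635, 7885 and 579 CPM and Bgn (biglycan) at 3148, 3530 and 582 CPM.

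AP-1 and Ets factors gave 2 above and 4 below of 10. Those above were Fosb at 1.597, 2.515 and 12.2 CPM and Etv4 at 16.15, 12.8 and 50.2 CPM. Neither is among the genes of this list with the highest levels, which follow. Fosl2 was at 185.5, 182 and 41.6 CPM, Jun at 81.3, 87.3 and 10.8 CPM and Junb at 95.8, 87.4 and 11.5 CPM. Jund was at 120.0, 112 and 148 CPM (log2 fold change 0.35, edgeR adjusted p = 0.019).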

How the data were processed

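RNA-seq tables of 2 MEF samples (groups by label) and 1 ESC sample were analysed. The paper names TRIMMOMATIC, bowtie2 on Ensembl v67 transcripts, RSEM and a GC-content normalization, and the labels name Bowtie, RSEM and mm10. The authors deposited expected counts, taken here as values before the GC step, with TPM, FPKM and gene lengths. Deposited FPKM was not used because TPM orders genes in the same way. Expected counts were rounded, TMM-scaled and given as log2(CPM + 1), a pseudocount of 1. Genes were counted where the ESC value lay 1 log2 unit or more from each MEF sample, beside edgeR 4.0.16 (R 4.3.3) with its low-count filter. The paper used a log2 change over 1 for genes changed by retinoic acid or an ascorbic acid salt, not for MEFs against ESCs. The edgeR code was also run on simulated counts with a fixed spread and few changed genes. That trial cannot give error rates for these data, whose spread is not fixed and where more genes were called. The expected counts were not whole for 9.59% to 11.15% of all 29267 genes, those at 0 included, since RSEM divides shared reads. Exact 95% intervals of CPM ratios cover counting error only: reads carried no molecular identifiers, so PCR copies are not independent. Symbols (98.3% of identifiers) and positions came from GENCODE M21. The deposited length was within 1 base of the M21 mean in 5 of 10 uncounted members, so the annotation behind the counts differs. Members with at least 10 counts in 1 library were described, and of other lists the 4 genes with the highest mean CPM, of which 1 is not reported here. Members and lists were chosen with earlier results of these data known. Alternatives were TPM, size factors by median of ratios, pseudocounts of 0.1 and 5, at least 10 counts, no low-count filter, GC-content correction, DESeq2 1.42.0 and leaving out either MEF sample. Python 3.11.15, scipy 1.17.1, numpy 2.4.6 and pandas 2.3.3 were used.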

Additional observations from a re-analysis of the deposited data

How the results depend on the processing

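The 18 members lower in the library labelled ESC came to 18 to 21 with either MEF sample left out, and the 6 higher stayed 6. The 6 higher members were 3 with a pseudocount of 5, 3 with at least 10 counts and 1 (Timp1) with TPM. Over all genes TPM gave 1624 higher and 7692 lower in place of 3900 and 4617. Between the MEF samples, the 1 member apart became 7 with a pseudocount of 0.1 and 0 with 5, and the 492 genes apart became 3608 and 103, and 1107 with TPM. DESeq2 called 3 members higher in place of 5, and 2911 genes lower in place of 4563. The summed log2 ratios were -1.29 (MMP) and 0.27 (TIMP) with median-of-ratios size factors, and -2.75 (MMP), -3.16 (ADAMTS) and -0.04 (TIMP) with TPM. The median over genes with at least 10 counts moved by -1.11 with TPM, 0.17 with these size factors, 0.13 with a pseudocount of 5 and 0.25 with GC-content and length correction, which was chosen after seeing the data. The cause of these moves was not tested here. No paired analysis was possible because the labels number no replicates and ESCs have a single library. Without either MEF sample edgeR has no residual degree of freedom, so that test was left out. The library labelled ESC has the lowest depth, which limits members near 0 there.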
